A study of Mus musculus with 18 samples.

Results

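The genes of blood clotting and of clot breakdown were followed in liver and epididymal fat of mice on 3 diets. The set holds 31 genes: clotting factors, fibrinogen chains, clotting inhibitors and the plasmin system, chosen by name as probes annotated to each gene under its current or an older symbol. Of these 31 genes, 29 had a named probe among the 14422 named genes of the array, and F3 (tissue factor) and Cpb2 had none. In liver 24 of them entered the tests among 8937 genes, and in fat 14 among 10240 genes. A gene was tested only if 1 diet had it above background, with a detection p under 0.05, on each of its 3 arrays. Some members therefore passed only through the diets in which they were high: F7 and Proc in fat, and Plaur and Serpina5 in liver.

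Messenger RNA was measured on 18 Illumina bead arrays, 9 of liver and 9 of epididymal fat, with 3 arrays for each diet and tissue. The mice were male C57BL/6J, a strain that one label field spells C56BL/6J, 4 weeks old on arrival and kept for 16 weeks on their diets. ND stands for 10 mice on a normal diet. HFD stands for 13 mice on a diet holding 20% fat plus 1% cholesterol, and LU for 13 mice on that HFD chow with 0.005% luteolin, a plant flavonoid, added. Whether the 3 arrays of each group stem from different mice is not in the labels. The p-values therefore rest on how far these samples scatter, which may be technical scatter alone.

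In the clotting cascade, tissue factor with factor VII activates factor X, and the contact factors (factor XII, plasma prekallikrein, kininogen) with factors XI, IX and VIII amplify that step. Factor X with factor V turns prothrombin into thrombin, which cuts fibrinogen into the fibrin that factor XIII cross-links. Antithrombin, heparin cofactor II, tissue factor pathway inhibitor and the thrombomodulin and protein C pathway restrain these steps, and plasmin dissolves the clot. Most of these proteins are secreted by hepatocytes, whereas factor VIII and von Willebrand factor come mainly from endothelial cells.

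Liver arrays had 15464 to 16998 detected probes and fat arrays 19113 to 19852, with median signals of 149.98 to 159.7 and 193.5 to 215.8, and precision is limited by there being 3 arrays a group. Of 15 hepatocyte markers 14 were detected on all 9 liver arrays, and 9 of 9 adipocyte markers on all 9 fat arrays. In fat 9 of the 15 hepatocyte markers, albumin (Alb) among them, were detected on none of the 9 arrays, and the 4 detected on all of them were Ass1, Cyp2e1, Pck1 and Rbp4. Levels below are log2 intensities after normalization within a tissue, differences are on that log2 scale ± SE, and adjusted p-values come from limma over all genes tested. Levels of different genes come from different probes and cannot be compared with each other. The same 3 HFD arrays of a tissue enter both HFD against ND and LU against HFD, so these comparisons are not independent.

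Between the tissues on the normal diet, the genes of most secreted clotting factors were higher in liver. Those of thrombomodulin, von Willebrand factor, the catalytic chain of factor XIII, protein S and the plasminogen activators were higher in fat. For this comparison all 18 arrays were normalized together. Of the 28 members tested, 20 were higher in liver, where 38.2% of all 10764 genes were, and 8 were higher in fat, where 47.4% of all genes were. The median difference of the members was 7.30 in favour of liver, against -0.14 over all genes. It rests in part on background values, since many of the 20 were not detected on all ND fat arrays. With each gene read by its detected probe of smallest p, a choice that favours calls, the counts were 21 and 7. The share of all genes called then was 89.5%, from 85.7%. Liver and fat signals were deposited in separate tables, so tissue and any difference in handling between the tables cannot be told apart.

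Of these 20 members, 12 were detected on none of the 3 ND fat arrays, so only a lower bound of their ratio can be given. The bound ran from at least 37.7-fold for Serpinc1 (antithrombin) to at least 1157-fold for Fga (the alpha chain of fibrinogen). It was at least 38.7-fold for F7, at least 323-fold for F9 (factor IX), at least 74.3-fold for F11 (factor XI) and at least 455-fold for Plg (plasminogen). F12, Klkb1, F13b, Serpind1, Serpina10 and Serpinf2 had bounds in the same range. F2 (prothrombin), F5 (factor V), Fgg (fibrinogen gamma) and Proc (protein C) were detected on 2 of 3 ND fat arrays and were higher in liver by 6.37 to 8.16.

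F10, Kng1, F8 and Serpina5 were detected on all 3 ND arrays of both tissues. F10 (factor X) averaged 13.63 ± 0.054 (SD, n = 3) in liver and 6.10 ± 0.21 in fat, and Kng1 (kininogen) 16.05 ± 0.026 and 7.18 ± 0.19. The liver level of F8 (factor VIII) exceeded that of fat by only 1.83 ± 0.098 (adjusted p = 2.65e-11). Serpina5, the protein C inhibitor, lay closest among these 20, 0.79 ± 0.13 higher in liver.

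Higher in fat were Vwf, F13a1, Tfpi, Thbd, Pros1, Plat, Plau and Plaur, with the 3 arrays of each tissue not overlapping. The direction of Tfpi depends on the probe, since another Tfpi probe was detected on all 9 liver arrays and on no fat array. F13a1 (the catalytic chain of factor XIII) was at least 75.8-fold higher in fat, Thbd (thrombomodulin) at least 18.2-fold and Plat (tissue plasminogen activator) at least 16.2-fold, each detected on no ND liver array. Vwf (von Willebrand factor) averaged 11.22 ± 0.14 in fat and 8.26 ± 0.31 in liver. Pros1 (protein S), the cofactor of activated protein C, lay close in both, at 11.96 ± 0.10 in liver and 12.20 ± 0.064 in fat (adjusted p = 0.003). On the ND arrays the catalytic chain of factor XIII was detected in fat and in no liver array, and its carrier chain F13b in liver and in no fat array.

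**Figure D1:**
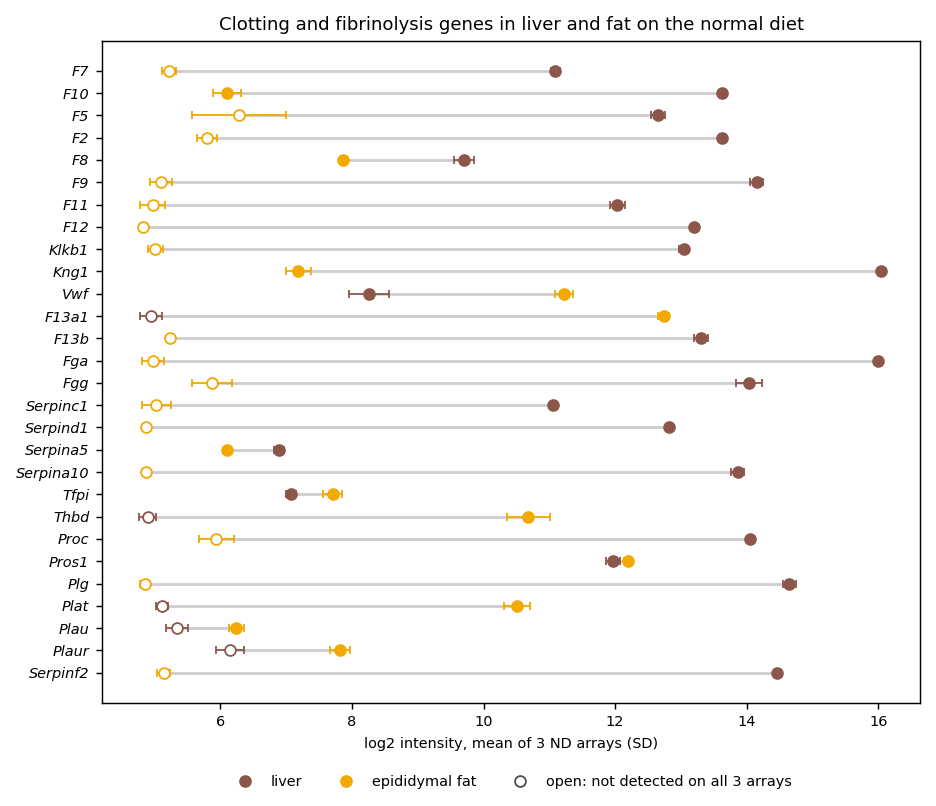
Mean log2 intensity on the 3 ND arrays of liver (brown) and epididymal fat (yellow), with SD, for the 28 genes tested after joint normalization; open points were not detected on all 3 arrays. Of these genes 20 lie to the right in liver and 8 in fat, and Pros1, Tfpi and Serpina5 lie closest together.

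In fat the messenger RNAs of the initiating protease pair F7 and F10, of Kng1, of the urokinase system and of protein S were higher on HFD than on ND, and those of thrombomodulin and tissue factor pathway inhibitor were lower. Of the 14 members tested 7 rose between ND and HFD, where 21.5% of all genes did, and 4 fell, where 23.9% did. The median difference of the 14 was 0.24, against -0.03 over all genes. Between HFD and LU, 8 fell (15.5% of all genes) and 1 rose (16.3% of all genes), with a median of -0.32 against 0.02. Between ND and LU 6 were higher (17.6% of all genes) and 4 lower (15.6%), with a median of 0.02 against 0.00.

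F7 read 5.20, 5.32 and 5.46 on the ND arrays, 8.74, 8.62 and 8.35 on the HFD arrays and 8.18, 7.70 and 7.99 on the LU arrays. All 6 arrays of the fat-rich diets lay above the 3 ND arrays, on none of which the probe was detected, and the LU arrays lay below the HFD arrays. The ratio of HFD to ND was at least 5.69-fold and that of LU to ND at least 3.71-fold (adjusted p = 7.5e-07 and 8.17e-06). These bounds hold for the normalization used here, and over the alternatives the log2 difference between HFD and ND ran from 1.55 to 3.36. From HFD to LU F7 fell by 0.61 ± 0.14 (adjusted p = 0.00918).

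F10 read 6.59, 6.52 and 6.12 on the ND arrays, 8.75, 8.58 and 8.37 on the HFD arrays and 8.21, 8.03 and 8.08 on the LU arrays. The 3 diets did not overlap, with ND lowest and HFD highest, and the probe was detected on all 9 arrays. Between ND and HFD F10 rose by 2.16 ± 0.13 (4.46-fold, adjusted p = 3.63e-06), position 73 of 10240 genes ranked by rise, and LU exceeded ND by 1.70 ± 0.13. Its ND values lay close to the detection level of 6.00 to 6.12, and over the alternatives the rise ran from 1.14 to 2.26. From HFD to LU F10 fell by 0.46 ± 0.13 (adjusted p = 0.0293). That call was lost without HFD array 1 or 2 or LU array 2 or 3, with adjusted p of 0.0776 to 0.0968.

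F7 and F10 are neighbours with 0 annotated genes between them. Of the 4 genes on each side, 3 were tested in fat. Between ND and HFD Lamp1 rose by 0.31 ± 0.083, Cul4a fell by 0.20 ± 0.065, and Mcf2l differed by -0.22 ± 0.20 (adjusted p = 0.416). The windows from 250 bases before to 50 bases after each gene's start are shown because both genes rose together in fat, a choice made after the values were seen. They come from RefSeq (GRCm38.p6), which holds such a window for 23 of the 31 members. Capitals mark any match on either strand to TTNNGNAA (C/EBP), GTTAAT (HNF1), TTCNNNGAA (STAT), TGANTCA (AP-1) or TGTTTNC (forkhead).
F7, chr8:13025784-13026083, + strand: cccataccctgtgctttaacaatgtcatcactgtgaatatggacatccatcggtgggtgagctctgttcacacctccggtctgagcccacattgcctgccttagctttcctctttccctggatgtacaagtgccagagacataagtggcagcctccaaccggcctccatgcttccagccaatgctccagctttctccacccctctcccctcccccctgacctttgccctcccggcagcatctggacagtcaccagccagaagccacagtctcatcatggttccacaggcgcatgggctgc
F10, chr8:13037058-13037357, + strand: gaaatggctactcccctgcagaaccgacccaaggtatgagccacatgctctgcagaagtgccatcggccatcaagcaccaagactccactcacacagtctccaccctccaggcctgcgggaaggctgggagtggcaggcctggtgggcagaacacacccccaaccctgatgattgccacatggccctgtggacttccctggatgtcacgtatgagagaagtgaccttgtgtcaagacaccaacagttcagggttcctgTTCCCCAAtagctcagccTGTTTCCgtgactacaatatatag
The F7 window held no match to any of the 5 motifs. In the F10 window 1 match to the C/EBP letters lay at bases 9 to 16 after the start and 1 match to the forkhead letters at bases 27 to 33. Among 32851 promoter windows of that length, 40.7% held the C/EBP letters, 20.5% the forkhead letters, 8.3% the STAT letters, 7.81% the AP-1 letters and 7.1% the HNF1 letters.

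Kng1, the precursor of bradykinin, read 7.76, 7.38 and 7.71 on the ND arrays, 8.71, 8.78 and 8.83 on the HFD arrays and 8.48, 8.35 and 8.35 on the LU arrays. Every HFD array lay above every LU array and every LU array above every ND array. It rose by 1.15 ± 0.099 with the high-fat diet (adjusted p = 2.29e-05) and fell by 0.38 ± 0.099 between HFD and LU (adjusted p = 0.0182). That fall lost its call without HFD array 2 or 3 or LU array 2 or 3 (adjusted p = 0.0537 to 0.0646). Its second detected probe gave 0.45 ± 0.24 for HFD against ND and did not pass. The paralog Kng2, close to Kng1 in sequence, rose by 0.60 ± 0.07, so signal shared between both genes cannot be told apart.

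Markers of macrophages moved in the same direction in fat. Of 13 macrophage markers, all tested, 12 rose between ND and HFD and 11 fell between HFD and LU. Their summed intensity was 40524 to 47894 on the ND arrays, 87952 to 97667 on the HFD arrays and 62820 to 69148 on the LU arrays. Their part in the changes of F7, F10, Kng1 and Plaur was not tested. In bulk tissue fewer cells of a type and less RNA per cell cannot be told apart.

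F8 and Vwf did not pass in any comparison of fat. F8 stayed between 8.13 and 8.42 over the 9 arrays, and Vwf between 11.26 and 11.69, with overlapping groups between ND and HFD. Of 14 endothelial markers in fat, 1 rose and 4 fell between ND and HFD. Their sum was 66050 to 72238 on the ND arrays, 56766 to 65032 on the HFD arrays and 63434 to 64609 on the LU arrays.

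F13a1 read 13.01, 12.90 and 12.88 on the ND arrays, 12.80, 12.69 and 12.66 on the HFD arrays and 11.92, 11.89 and 11.94 on the LU arrays. The 3 diets did not overlap, and the LU arrays lay apart from the other 6. Between HFD and LU F13a1 fell by 0.80 ± 0.064 (1.74-fold, adjusted p = 0.000245), and LU lay 2.02-fold below ND (adjusted p = 1.38e-05). The smaller fall of 0.22 ± 0.064 between ND and HFD (adjusted p = 0.0219) lost its call without ND array 1 or HFD array 2 or 3 (adjusted p = 0.0633 to 0.0708). F13a1 is known as a gene of resident macrophages as well as of platelets. Of 5 Kupffer cell markers tested in fat 4 fell between HFD and LU, with sums of 5982 to 7694 on the ND arrays, 5062 to 5616 on the HFD arrays and 2902 to 3109 on the LU arrays. All 5 mast cell markers also fell between HFD and LU. Of 5 platelet markers 1 fell, with sums of 3609 to 4240 on the ND arrays, 4811 to 5017 on the HFD arrays and 3007 to 3313 on the LU arrays. The part of these lists in the F13a1 values was not tested.

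Among the clotting inhibitors in fat, thrombomodulin changed most with the high-fat diet. Thbd, the endothelial receptor that turns thrombin towards protein C, read 10.88, 10.81 and 11.38 on the ND arrays, 10.20, 9.93 and 10.25 on the HFD arrays and 10.23, 10.31 and 10.11 on the LU arrays. Its 6 arrays of HFD and LU lay below the 3 ND arrays, and HFD and LU overlapped. It fell by 0.90 ± 0.15 from ND to HFD (adjusted p = 0.0011), and LU lay below ND by 0.80 ± 0.15 (adjusted p = 0.00355). LU differed from HFD by 0.092 ± 0.15 (adjusted p = 0.669).

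Thrombomodulin is also made by mesothelium, the lining of the fat pad. All 6 mesothelial markers tested fell between ND and HFD and 3 of 6 fell again between HFD and LU, with sums of 2631 to 3025 on the ND arrays, 1489 to 2186 on the HFD arrays and 841 to 989 on the LU arrays. Of 3 erythrocyte markers 2 also fell between ND and HFD, with sums of 66534 to 72434 and 36872 to 61480. The part of either list in the Thbd values was not tested.

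Tfpi, the inhibitor of the tissue factor and factor VII complex, read 8.10, 8.32 and 8.05 on the ND arrays, 7.86, 7.56 and 7.77 on the HFD arrays and 7.69, 7.55 and 7.74 on the LU arrays in fat. The ND arrays lay above the other 6, and HFD and LU overlapped. Tfpi fell by 0.43 ± 0.10 from ND to HFD (adjusted p = 0.00713). Its LU level was also below ND, by 0.50 ± 0.10 (adjusted p = 0.00536).

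Serpina5 read 6.37, 6.47 and 6.40 on the ND arrays, 6.87, 6.87 and 7.15 on the HFD arrays and 6.93, 6.81 and 7.03 on the LU arrays. The ND arrays lay below the other 6, and HFD and LU overlapped. Serpina5 rose by 0.55 ± 0.091 with HFD (adjusted p = 0.00112) and was 0.51 ± 0.091 higher in LU than in ND (adjusted p = 0.00308).

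Pros1 read 12.37, 12.44 and 12.48 on the ND arrays, 12.83, 12.77 and 12.76 on the HFD arrays and 12.46, 12.56 and 12.52 on the LU arrays. The HFD arrays lay above all others, and ND and LU overlapped. Protein S rose by 0.35 ± 0.06 with HFD (adjusted p = 0.00131) and fell by 0.27 ± 0.06 from HFD to LU (adjusted p = 0.00914).

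Proc stayed near the detection level, at 6.34, 5.83 and 6.44 on the ND arrays, 5.83, 5.38 and 5.94 on the HFD arrays and 6.66, 6.86 and 6.79 on the LU arrays. It was detected on 2 of 3 ND arrays, on none of the HFD arrays and on all 3 LU arrays, which were the highest 3. LU was at least 1.66-fold above HFD (adjusted p = 0.0027). The ND and HFD arrays overlapped, and with HFD at background the lower HFD value (adjusted p = 0.0481) gives no size for a fall, though it is counted among the 4 lower members. LU was 0.57 ± 0.18 above ND (adjusted p = 0.0358). Both calls were lost with arrays left out, the first without ND array 1 or 3, HFD array 1 or 2 or any LU array (adjusted p = 0.0635 to 0.167) and the second without ND array 2 or any LU array (adjusted p = 0.0631 to 0.103).

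The plasminogen activators and the urokinase receptor were lower in fat with luteolin. Plaur, the receptor that holds urokinase on the surface of leukocytes and other cells, read 8.43, 8.22 and 8.14 on the ND arrays, 9.07, 8.97 and 9.02 on the HFD arrays and 8.51, 8.51 and 8.57 on the LU arrays. The 3 diets did not overlap, with HFD highest and ND lowest. Plaur rose by 0.76 ± 0.08 with HFD (adjusted p = 7.52e-05) and fell by 0.49 ± 0.08 from HFD to LU (adjusted p = 0.00234). The remaining difference of 0.27 ± 0.08 between LU and ND (adjusted p = 0.0295) lost its call without ND array 2 or 3 or any LU array (adjusted p = 0.0672 to 0.0929).

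Plau, urokinase itself, read 6.65, 6.66 and 6.42 on the ND arrays, 7.06, 6.84 and 6.97 on the HFD arrays and 6.57, 6.10 and 6.61 on the LU arrays. The HFD arrays were the highest 3, and LU array 2 was the lowest of all. It fell by 0.53 ± 0.14 from HFD to LU (adjusted p = 0.017), a call lost without HFD array 1 (adjusted p = 0.0573). The rise of 0.38 ± 0.14 from ND to HFD (adjusted p = 0.047) lost its call without any one of the ND and HFD arrays or LU array 1 (adjusted p = 0.0542 to 0.142).

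Plat read 10.91, 11.01 and 10.66 on the ND arrays, 11.03, 10.85 and 11.05 on the HFD arrays and 10.40, 10.46 and 10.36 on the LU arrays. The LU arrays were the lowest 3, and ND and HFD overlapped. Tissue plasminogen activator fell by 0.57 ± 0.097 from HFD to LU (adjusted p = 0.00284), and LU lay below ND by 0.46 ± 0.097 (adjusted p = 0.00705).

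**Figure D2:**
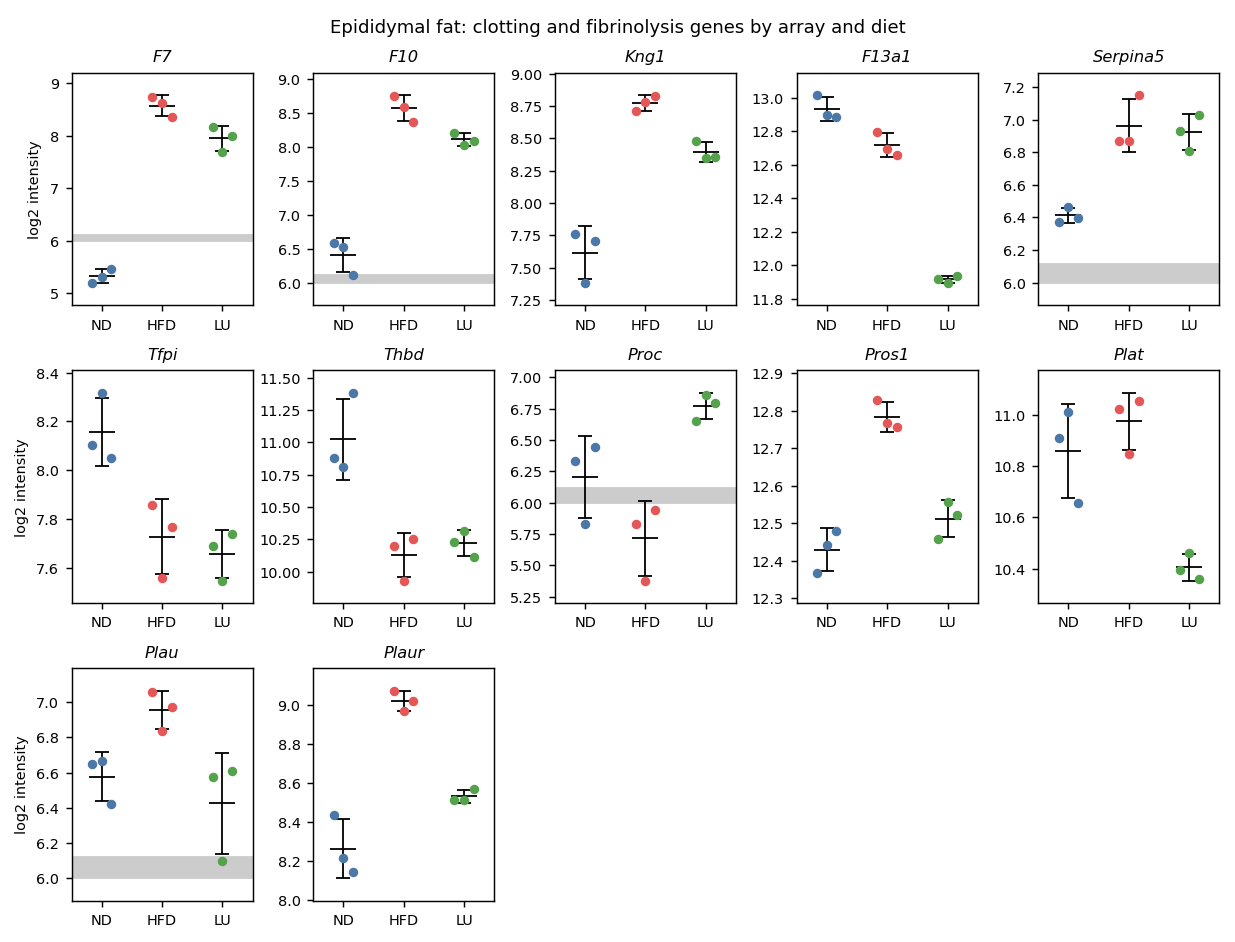
Log2 intensity of the 12 genes called in at least 1 diet comparison of epididymal fat, with 1 point per array, the mean and SD of 3 arrays per diet, and each panel on its own scale; the grey band is the range of detection levels over the fat arrays. F7 and F10 are lowest on ND, F13a1 and Plat lowest on LU, and Thbd and Tfpi highest on ND.

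In liver F8, Vwf and Pros1 were higher on HFD than on ND. F8 fell with luteolin, as did Tfpi on its brighter probe only. The hepatocyte genes F10, F11 and Klkb1 were lower on HFD than on ND, as was Serpinc1 on its brighter probe only. Of 24 members 9 passed between ND and HFD, 3 higher (17.9% of all genes) and 6 lower (12.4%), with a median of -0.04 against 0.00 over all genes. Between HFD and LU 2 were higher (8.41% of all genes) and 4 lower (8.66%), with a median of 0.09 against 0.03. Between ND and LU 2 were higher (23.7% of all genes) and 4 lower (17.4%), with medians of 0.03 for both. Under median scaling the split of all genes between ND and HFD moved from 1599 higher and 1105 lower to 2268 higher and 476 lower, with the median gene at 0.12. The fibrinogen genes Fga and Fgg did not pass in any comparison. Fga lay between 15.94 and 16.02 on the 9 arrays, at 92.5% or more of the highest signal of its array, and Kng1 lay equally close to the top of the scale, at 15.98 to 16.08. Of the dimmer Kng1 probes, 1 gave 0.51 ± 0.16 for LU against HFD (adjusted p = 0.0479) and 0.55 ± 0.16 for LU against ND (adjusted p = 0.019). Another gave 0.18 ± 0.074 and 0.087 ± 0.074 and did not pass. Fgg differed by -0.21 ± 0.10 between ND and HFD (adjusted p = 0.155), and the Fgb probe was detected on none of the 18 arrays.

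F8 read 9.35, 9.15 and 9.04 on the ND arrays, 9.59, 9.93 and 9.55 on the HFD arrays and 8.82, 8.81 and 8.79 on the LU arrays. The HFD arrays were the highest 3 and the LU arrays the lowest 3. F8, whose product is the cofactor of factor IX, rose by 0.51 ± 0.11 with HFD (adjusted p = 0.0081) and fell by 0.89 ± 0.11 (1.85-fold) from HFD to LU (adjusted p = 0.00224). Its other 2 detected probes rose by 0.62 ± 0.11 and 0.48 ± 0.11 and fell by 0.59 ± 0.11 and 1.21 ± 0.11. Against ND the LU level of F8 differed by -0.37 ± 0.11 (adjusted p = 0.0243), a call lost without ND array 1 or any LU array (adjusted p = 0.0578 to 0.0783) or under median scaling (adjusted p = 0.117). Its other probes disagreed there, with 0.037 ± 0.11 and -0.73 ± 0.11 (adjusted p = 0.807 and 0.000664).

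Vwf read 7.74, 7.26 and 7.89 on the ND arrays, 8.07, 8.72 and 8.12 on the HFD arrays and 7.96, 7.69 and 7.79 on the LU arrays. The HFD arrays lay above the rest, HFD array 2 highest, and ND and LU overlapped. It rose by 0.67 ± 0.20 with HFD (adjusted p = 0.0305), a call lost without ND array 2 or HFD array 2 (adjusted p = 0.0875 to 0.0933). LU differed from HFD by -0.49 ± 0.20 (adjusted p = 0.119).

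Of 14 endothelial markers in liver, all tested, 7 rose between ND and HFD and 9 fell between HFD and LU. Their sums were 11728 to 11834 on the ND arrays, 14664 to 15781 on the HFD arrays and 11670 to 12136 on the LU arrays. Their part in the changes of F8 and Vwf was not tested.

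**Figure D3:**
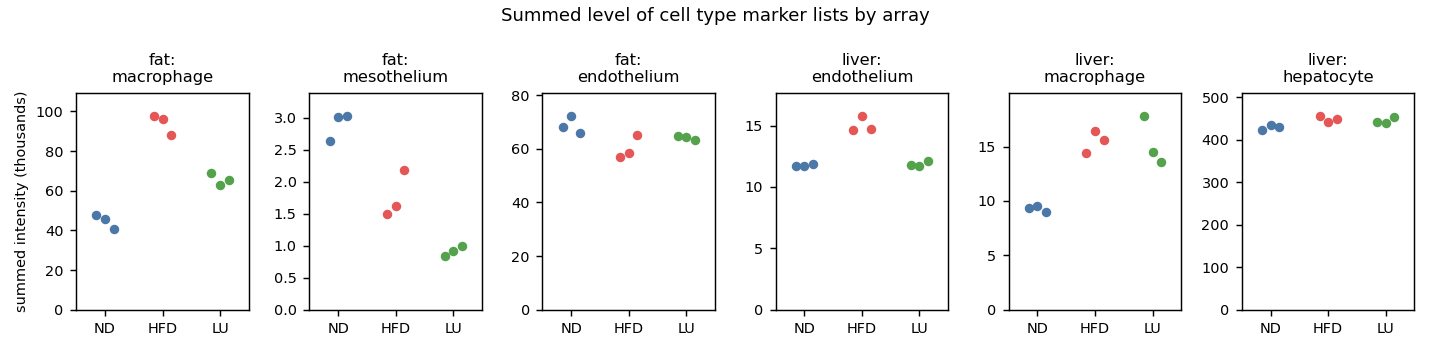
Summed intensity after background correction of the tested markers of each list, with 1 point per array and 3 arrays per diet. Macrophage markers in fat and endothelial markers in liver are highest on HFD, and mesothelial markers in fat fall from ND to LU. Hepatocyte markers in liver differ little, and their sum is weighted to bright probes such as Apoa1 and Cyp2e1, at the top of the scale.

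Pros1 in liver read 11.75, 11.69 and 11.51 on the ND arrays, 11.97, 11.89 and 12.02 on the HFD arrays and 11.73, 11.75 and 11.66 on the LU arrays. The HFD arrays were the highest 3, as in fat, and ND and LU overlapped. Pros1 rose by 0.31 ± 0.078 with HFD (adjusted p = 0.015), a call lost without HFD array 3 (adjusted p = 0.0539), and LU differed from HFD by -0.25 ± 0.078 (adjusted p = 0.0566). Protein S is made by hepatocytes, endothelial cells and macrophages. Of 11 macrophage markers tested in liver 8 rose between ND and HFD. Their sums were 9029 to 9552 on the ND arrays, 14405 to 16449 on the HFD arrays and 13588 to 17814 on the LU arrays. The endothelial sums in liver were 11728 to 11834 on ND, 14664 to 15781 on HFD and 11670 to 12136 on LU. The part of these cell types in the Pros1 values was not tested.

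The contact pathway genes F11 and Klkb1, which are neighbours in the genome, were lower on HFD. F11 read 11.70, 11.88 and 11.61 on the ND arrays, 11.32, 11.22 and 11.30 on the HFD arrays and 11.97, 11.75 and 11.75 on the LU arrays. The HFD arrays were the lowest 3, and ND and LU overlapped. F11 fell by 0.45 ± 0.091 from ND to HFD (adjusted p = 0.00606) and was 0.54 ± 0.091 higher in LU than in HFD (adjusted p = 0.00617). A second probe gave -0.48 ± 0.09 and 0.51 ± 0.09.

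Klkb1, plasma prekallikrein, read 12.94, 12.88 and 12.78 on the ND arrays, 12.61, 12.45 and 12.59 on the HFD arrays and 12.75, 12.80 and 12.85 on the LU arrays. Again the HFD arrays were the lowest 3, and ND and LU overlapped. Klkb1 fell by 0.32 ± 0.073 from ND to HFD (adjusted p = 0.0104). The rise of 0.25 ± 0.073 from HFD to LU (adjusted p = 0.0444) lost its call without any one of the HFD and LU arrays or ND array 2 (adjusted p = 0.0539 to 0.13) and under median scaling (adjusted p = 0.163). F12, which activates both proteins, had 3 detected probes that disagreed, with -0.78 ± 0.082 for LU against ND on the dimmest and 0.076 ± 0.066 on the brightest.

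The promoter windows of F11 and F8, which among the 24 members tested had the largest rise and the largest fall in liver from HFD to LU, are shown with the same marks. F8 was to be shown by rule together with Tfpi and Vwf, and F11 was chosen after its values were seen.
F11, chr8:45261982-45262281, - strand: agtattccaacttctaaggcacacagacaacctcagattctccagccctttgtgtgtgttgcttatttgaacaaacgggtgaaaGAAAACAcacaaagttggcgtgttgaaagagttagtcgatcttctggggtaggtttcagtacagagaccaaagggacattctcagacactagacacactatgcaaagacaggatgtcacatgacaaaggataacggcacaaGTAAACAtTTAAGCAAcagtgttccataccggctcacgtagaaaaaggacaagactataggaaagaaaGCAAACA
F8, chrX:75379992-75380291, - strand: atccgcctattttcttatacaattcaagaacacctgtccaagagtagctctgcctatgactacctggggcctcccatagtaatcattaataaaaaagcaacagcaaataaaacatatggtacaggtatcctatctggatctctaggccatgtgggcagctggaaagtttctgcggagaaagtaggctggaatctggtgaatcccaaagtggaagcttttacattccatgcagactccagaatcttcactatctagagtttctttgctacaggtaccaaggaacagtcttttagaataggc
The F11 window held 3 matches to the forkhead letters, at bases 166 to 160 and 25 to 19 before the start and at bases 44 to 50 after it, and 1 match to the C/EBP letters at bases 17 to 10 before the start. The F8 window and both annotated windows of Tfpi held no match to any of the 5 motifs. Of 11 liver transcription and cytokine signalling factors tested, 1 rose and 3 fell between ND and HFD. Among these Foxa2, a forkhead factor of hepatocytes, fell by 0.57 ± 0.15 (adjusted p = 0.0221). That call was lost without ND array 1 or 2 or HFD array 2 (adjusted p = 0.0561 to 0.0729) or under median scaling (adjusted p = 0.0772). From HFD to LU Foxa2 differed by 0.44 and did not pass (adjusted p = 0.0767). Its part in the F11 values was not tested. A match to these letters is a description of the sequence and says nothing of what binds there.

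F10 in liver read 13.48, 13.60 and 13.59 on the ND arrays, 13.25, 13.28 and 13.28 on the HFD arrays and 13.50, 13.41 and 13.52 on the LU arrays. The HFD arrays were the lowest 3, opposite to fat, and ND and LU overlapped. It fell by 0.29 ± 0.063 from ND to HFD (adjusted p = 0.00848), and LU differed from HFD by 0.21 ± 0.063 (adjusted p = 0.0527). Of 14 hepatocyte markers tested in liver 2 rose and 1 fell between ND and HFD, with sums of 421983 to 435644 on the ND arrays and 441340 to 455809 on the HFD arrays.

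F7 in liver read 10.67, 10.77 and 10.60 on the ND arrays, 10.48, 10.30 and 10.41 on the HFD arrays and 10.40, 10.45 and 10.68 on the LU arrays. The ND and HFD arrays did not overlap, and the LU arrays spread over both. Its fall of 0.28 ± 0.091 from ND to HFD (adjusted p = 0.0437) lost its call without any one of the ND and HFD arrays or LU array 2 (adjusted p = 0.0519 to 0.138) and under median scaling (adjusted p = 0.19).

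F5 read 12.33, 12.55 and 12.39 on the ND arrays, 12.48, 12.47 and 12.56 on the HFD arrays and 12.79, 12.60 and 12.82 on the LU arrays. The LU arrays were the highest 3, and ND and HFD overlapped. F5 was 0.31 ± 0.085 higher in LU than in ND (adjusted p = 0.0163), lost without ND array 1 or LU array 1 or 3 (adjusted p = 0.0533 to 0.0594). A second, dimmer F5 probe gave 0.056 ± 0.092 (adjusted p = 0.655), so these probes disagree. F9 read 14.20, 14.001 and 14.16 on the ND arrays, 14.31, 14.26 and 14.33 on the HFD arrays and 14.31, 14.36 and 14.34 on the LU arrays. The ND arrays were the lowest 3, and HFD and LU overlapped. Its difference of 0.22 ± 0.069 between LU and ND (adjusted p = 0.0321) was lost without ND array 2 or any LU array (adjusted p = 0.0622 to 0.0974), under cyclic loess (adjusted p = 0.0715) and under median scaling (adjusted p = 0.385). F2 differed by -0.043 ± 0.059 between ND and HFD and did not pass in any comparison.

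Among the inhibitors in liver, Tfpi fell with each step on its brighter probe only. It read 8.13, 8.07 and 8.07 on the ND arrays, 7.70, 7.57 and 7.73 on the HFD arrays and 7.35, 7.36 and 7.18 on the LU arrays. The 3 diets did not overlap, with ND highest and LU lowest. Tfpi fell by 0.42 ± 0.074 from ND to HFD (adjusted p = 0.00313), by 0.38 ± 0.074 from HFD to LU (adjusted p = 0.0117), and lay 1.74-fold lower in LU than in ND (adjusted p = 7.54e-05). The first step lost its call under median scaling (adjusted p = 0.0754). Liver and fat were read by different Tfpi probes, and the liver probe was detected on no fat array. In liver the probe used in fat gave 0.27 ± 0.20 for HFD against ND and -0.14 ± 0.20 for LU against HFD. For LU against ND it gave 0.13 ± 0.20. None of these passed, so the probes disagree.

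Serpinc1 read 10.64, 10.62 and 10.65 on the ND arrays, 10.35, 10.08 and 10.12 on the HFD arrays and 10.28, 10.44 and 10.51 on the LU arrays. The ND arrays were the highest 3, and HFD and LU overlapped. Antithrombin messenger RNA fell by 0.45 ± 0.09 from ND to HFD (adjusted p = 0.00569). A second, dimmer probe gave 0.054 ± 0.11 for that comparison and 0.56 ± 0.11 for LU against ND, where the brighter probe gave -0.22 ± 0.09, so these probes disagree.

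Serpind1, heparin cofactor II, read 12.60, 12.62 and 12.57 on the ND arrays, 12.67, 12.70 and 12.56 on the HFD arrays and 12.27, 12.38 and 12.30 on the LU arrays. The LU arrays were the lowest 3, and ND and HFD overlapped. It fell by 0.33 ± 0.065 from HFD to LU (adjusted p = 0.012), and LU lay 0.28 ± 0.065 below ND (adjusted p = 0.00803).

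Serpina5 in liver was near the detection level, at 6.26, 6.27 and 6.37 on the ND arrays, 6.12, 6.06 and 6.40 on the HFD arrays and 5.91, 5.51 and 5.86 on the LU arrays. Only 1 of the 3 LU arrays detected it, and the LU arrays were the lowest 3. LU differed from ND by -0.54 ± 0.12 (adjusted p = 0.00625) and from HFD by -0.44 ± 0.12 (adjusted p = 0.0378), the latter lost without HFD array 1 or 3 or LU array 2 or 3 (adjusted p = 0.0686 to 0.117). Serpina10 (the inhibitor of factor Xa that acts with protein Z) and Proc did not pass in any liver comparison.

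The plasmin system genes tested in liver, Plg, Serpinf2 and Plaur, did not pass in any comparison. Plg, plasminogen, differed by 0.027 ± 0.069 between ND and HFD and by 0.13 ± 0.069 between HFD and LU, and its 4 detected probes disagreed, from -0.40 ± 0.097 to 0.45 ± 0.095 for LU against ND. Serpinf2, the plasmin inhibitor, differed by 0.07 ± 0.064 and 0.066 ± 0.064. Plaur was detected on none of the ND arrays, on 2 of the HFD arrays and on all 3 LU arrays, and its differences did not pass. Plat, Plau and Thbd did not pass the detection filter in liver.

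**Figure D4:**
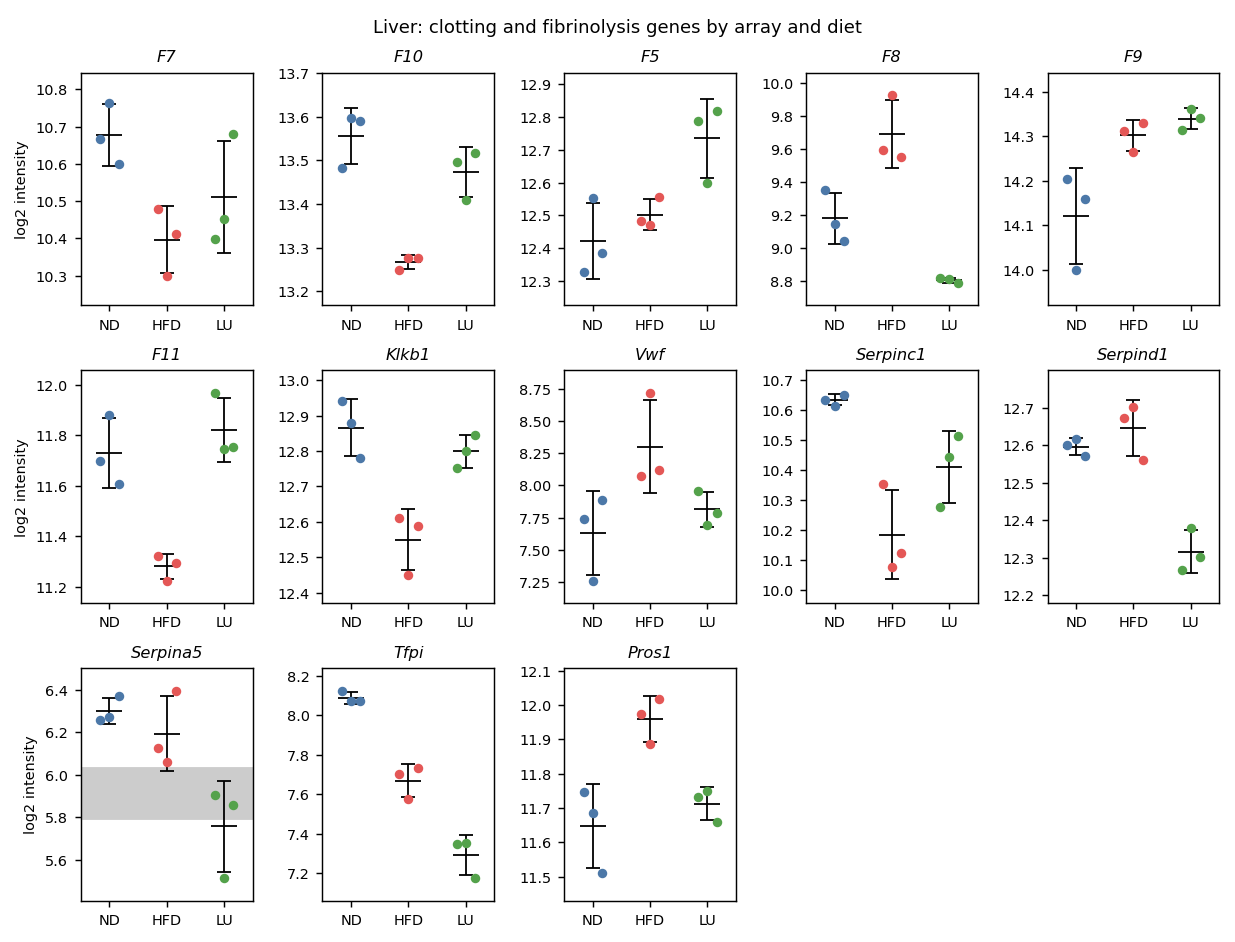
Log2 intensity of the 13 genes called in at least 1 diet comparison of liver, with 1 point per array, the mean and SD of 3 arrays per diet, and each panel on its own scale; the grey band is the range of detection levels over the liver arrays. F8, Vwf and Pros1 are highest on HFD, and F10, F11 and Klkb1 lowest on HFD. Tfpi falls from ND to HFD to LU on the probe shown, which its other detected probe does not share.

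The diet differences of both tissues were compared in one model of all 18 arrays. Of 28 members, 7 had a higher HFD minus ND difference in liver than in fat (18.1% of all genes) and 7 a lower one (13.3%), with a median of -0.11 against 0.04 over all genes. For LU minus HFD, 4 were higher (8.43%) and 2 lower (7.22%), with a median of 0.11 against -0.01. F7 differed by -3.17 ± 0.17 (adjusted p = 1.02e-08) and F10 by -2.27 ± 0.14 (adjusted p = 5.43e-08) between the tissues in their response to HFD. The size for F7 rests on a background value, since its probe was detected on no ND fat array. Of the HFD minus ND calls, F9, F11, Klkb1, F13b and Serpinf2 lay at background in fat, and F13a1 and Thbd at background in liver. These entered the test only through the other tissue, so their sizes rest on background values too. Without background correction F9 lost its call (-0.16, adjusted p = 0.179). F8 differed by 0.54 ± 0.14 for HFD and by -0.85 ± 0.14 for luteolin (adjusted p = 0.00795 and 0.00159). Pros1 rose in both tissues, and its responses differed by -0.11 ± 0.091 (adjusted p = 0.367).

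**Figure D5:**
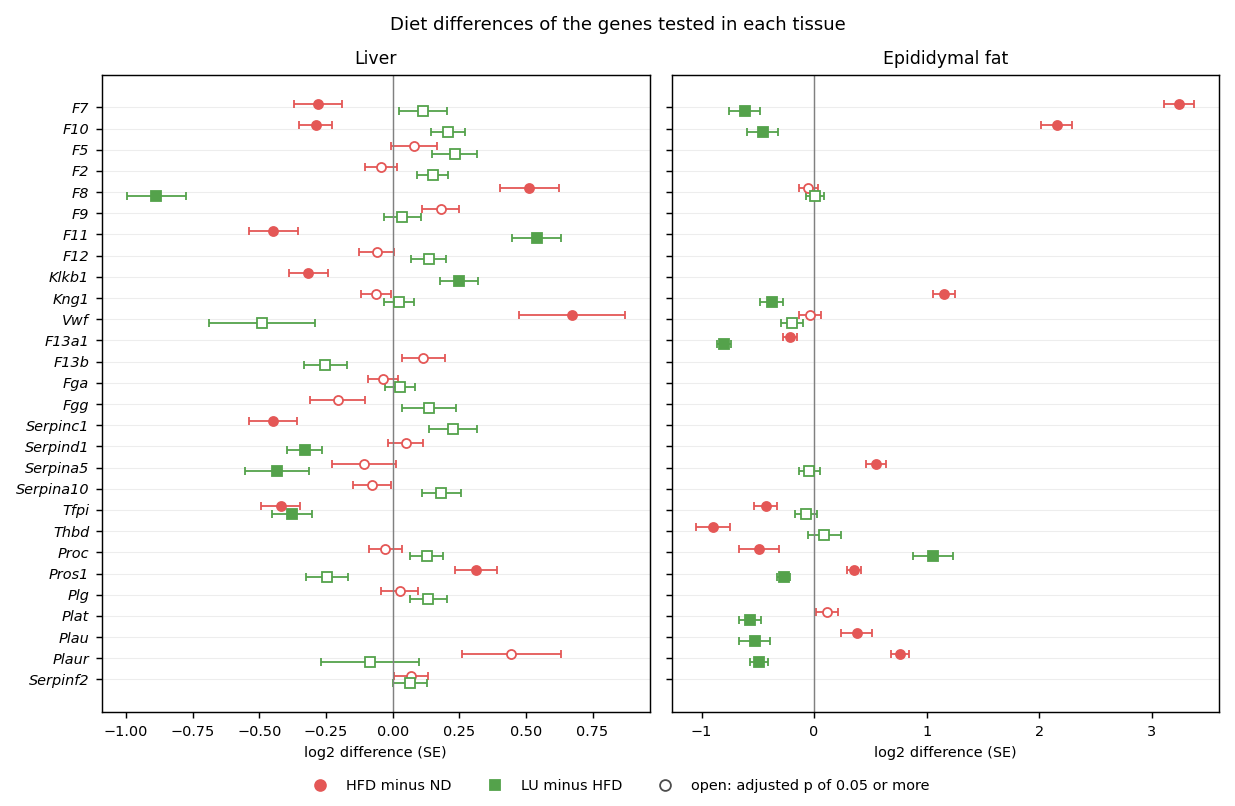
Log2 differences ± SE of HFD against ND (circles) and LU against HFD (squares) for each gene tested in liver (left) and fat (right), on separate horizontal scales; filled symbols have an adjusted p under 0.05. Differences in liver stay between -0.89 and 0.67, and in fat F10 reaches 2.16; the F7 point for HFD against ND in fat is measured against background and stands for a bound of at least 5.69-fold.

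Genes that act beside the set gave further values. Of 6 genes for plasmin control and plasminogen receptors, 3 rose in liver (17.9% of all genes) and 4 in fat (21.5% of all genes) between ND and HFD. Anxa2, a cell surface receptor of plasminogen and its activator, rose by 2.51 ± 0.23 in liver (adjusted p = 0.000127), and Plgrkt, another plasminogen receptor, by 0.68 ± 0.096. In fat the largest rise of that list was that of Serping1, the inhibitor of C1 and kallikrein, by 0.78 ± 0.071 (adjusted p = 3.38e-05). It fell by 0.36 ± 0.071 from HFD to LU (adjusted p = 0.00539).

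F2r, the thrombin receptor PAR1, rose by 0.68 ± 0.095 in liver and by 0.85 ± 0.091 in fat with HFD (adjusted p = 0.00101 and 8.63e-05). It fell by 0.60 ± 0.091 in fat from HFD to LU (adjusted p = 0.00182). F2rl3, another thrombin receptor, rose by 0.93 ± 0.17 in fat with HFD (adjusted p = 0.00215).

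Of 9 genes of the vitamin K cycle and of factor secretion in liver, 1 rose and 1 fell between ND and HFD, and 2 fell between HFD and LU. Over all genes 17.9% rose and 12.4% fell in the first comparison, and 8.66% fell in the second. The rise was that of Nqo1, a quinone reductase, by 0.59 ± 0.11. Mcfd2, which helps carry factors V and VIII out of the endoplasmic reticulum, fell by 0.39 ± 0.069 (adjusted p = 0.00711). Ggcx, the vitamin K-dependent carboxylase, fell by 0.50 ± 0.11 (adjusted p = 0.0152), a call lost without HFD array 3 or LU array 3 (adjusted p = 0.0548 to 0.0574).

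Of 6 other clotting-related genes tested in liver 3 fell between ND and HFD, and of 5 in fat 3 rose and 1 fell. Serpina1a fell by 0.51 ± 0.10 in liver, and Serpina1b rose by 0.94 ± 0.10 in fat, and both belong to a family of near-identical copies, so their signals may be shared. Of 11 transcription and cytokine signalling factors in liver, 1 rose and 3 fell between ND and HFD, and of 12 acute phase genes 6 rose and 1 fell. In fat 5 of 10 acute phase genes rose and 1 fell with HFD. The all-gene shares for HFD against ND were 17.9% higher and 12.4% lower in liver, and 21.5% and 23.9% in fat.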

How the data were processed

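The deposited liver and fat tables give, for 45281 probes on each of 18 arrays, a signal intensity without normalization and a detection p-value. GenomeStudio 2009.2 and R 2.4.1 are named, without a role, in the submitters' processing notes. The authors also deposited a matrix of log2 values, whose column medians were 7.88 to 7.89 in liver and 9.001 to 9.01 in fat, made by a method and centring not given in the sources used here, and it served only as an alternative. RNA (550 ng) was labelled for Illumina arrays, per the labels' protocols.

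Per tissue, limma 3.58.1 in R 4.3.3 applied neqc (normexp background correction from detection p-values, offset 16, quantile normalization, log2). A probe was kept if 1 diet had detection p-values under 0.05 on each of its 3 arrays. Names came from the platform annotation, updated through RefSeq, for 22883 probes with 1 gene. The probe of highest mean stood for a gene. lmFit and eBayes were fitted to the 9 arrays of a tissue, or to 18 arrays normalized together, and p-values were Benjamini-Hochberg adjusted over all genes (threshold 0.05). A ratio against a group undetected on all its arrays is a lower bound: the bright group's mean against, per array, the higher of the lowest detected signal and the dim probe's own. Scripts were tested on simulated data. Same-numbered ND arrays of liver and fat deviated together (correlations of 0.121, 0.155 and 0.154). Their numbers, taken from the labels, may therefore pair these samples. The fit reported has no block. With the replicate block 28 members were called for liver against fat on ND, 20 higher and 8 lower, where 85.5% of all genes were called. Tissues were compared by the difference of their diet differences.

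Members with an adjusted p under 0.05 in a diet comparison of either tissue were given array by array, and of other lists up to 4 genes with the largest called differences. The members and lists were chosen with earlier results of these data known. Alternatives covered background, normalization, filter, probe choice, moderation, arrays in the fit, the authors' values, a replicate block and each array left out. Slide and scan date are not in the tables. F3 and Cpb2 were not analysed here for want of a named probe.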

Additional observations from a re-analysis of the deposited data

Results flagged for a closer look

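For 14 genes the difference between HFD and ND differed between liver and fat, and for 6 genes that between LU and HFD did, by a test of the difference itself in limma over 18 arrays (values are the liver difference minus the fat difference ± SE, log2). In the initiating and common steps, F7 stood at -3.17 ± 0.17 (adjusted p = 1.02e-08) and F10 at -2.27 ± 0.14 (adjusted p = 5.43e-08) for HFD against ND. The F7 probe was detected on no ND fat array, so its size rests on a background value. For LU against HFD they stood at 0.73 ± 0.17 and 0.65 ± 0.14 (adjusted p = 0.0102 and 0.00818). F8 gave 0.54 ± 0.14 and -0.85 ± 0.14, and Vwf gave 0.67 ± 0.23 for HFD against ND.

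Kng1 differed by -1.22 ± 0.11 for HFD against ND and by 0.42 ± 0.11 for LU against HFD, its liver signal being at the top of the scale. F11 gave -0.52 ± 0.13 and Klkb1 -0.71 ± 0.16 for HFD against ND. F9 gave -0.57 ± 0.14 for HFD against ND and 0.44 ± 0.14 for LU against HFD. F13b gave 0.27 ± 0.097 and Serpinf2 0.31 ± 0.096 for HFD against ND. These last 5 genes were not tested in fat alone, where their values lie at background. F13a1 gave 1.10 ± 0.39 and Thbd 1.21 ± 0.19, and both were at background in liver.

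Among the other inhibitors, Serpina5 differed by -0.61 ± 0.19 and Tfpi by 0.73 ± 0.26 for HFD against ND, and Proc by -0.76 ± 0.17 for LU against HFD, with Proc detected on no HFD fat array. One Tfpi probe served both tissues here, and it is not the probe that stood for the gene in liver alone. Of the 20 differences, 8 lost their call when 1 of the 18 arrays was left out. The number of arrays that did so was 15 for F13b, 12 for F13a1, 12 for Tfpi, 10 for F9 (LU against HFD), 5 for Vwf, 3 for Serpina5, 3 for Serpinf2 and 1 for Kng1 (LU against HFD, without LU array 2 of fat).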

How the results depend on the processing

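Of 51 called diet differences of the members within a tissue, 34 kept their call under every alternative in which the gene was tested. Another 17 lost it under at least 1, and 0 changed sign. Of 20 called differences between the tissues 10 kept their call on the same terms. A gene not tested in a run was not counted there, so F7 and F10 in fat had 18 alternatives, where F13a1 in fat had 19. With each array left out in turn, the members called numbered 8 to 11 (HFD against ND), 7 to 9 (LU against HFD) and 8 to 11 (LU against ND) in fat, and 7 to 10, 4 to 7 and 3 to 7 in liver, where the 3 came without LU array 1. They numbered 8 to 13 (8 without HFD array 3 of fat) and 4 to 8 for the differences between tissues, and 28 in every run for liver against fat. The share of all genes called, in the same order, was 35.3% to 43.8%, 20.8% to 37.1% and 21.8% to 34.3% in fat. It was 20.8% to 28.5%, 8.38% to 17.3% and 31.1% to 39.7% in liver. For the differences between tissues it was 26.2% to 31.1% and 10.4% to 17.7%, and for liver against fat 83.4% to 85.8%. There 12 members were detected on no ND fat array and 5 on no ND liver array, so the constant count does not measure stability. Another setting read each gene by its detected probe of smallest p, which favours calls. It called 10 members in liver for LU against HFD and 10 for LU against ND. For the difference between tissues in LU against HFD it called 10. The shares of all genes called rose too, from 17.1% to 23.7%, from 41.1% to 48.0% and from 15.6% to 17.6%. With that probe choice Serpinc1 turned to 0.56 for LU against ND in liver. Tfpi turned to -0.33 for the difference between tissues in HFD against ND, since another probe stood for each. Trend and robust moderation called 11 members in liver for LU against HFD, where the share of all genes called rose from 17.1% to 20.6%. The cause was not tested. The stricter filter tested fewer genes and called 6, 5 and 6 members in fat, 3 and 2 for the differences between tissues, and 4 for liver against fat. Of all genes it called 48.4%, 33.7% and 34.8% in fat. For the differences between tissues it called 37.7% and 19.8% of all genes, and for liver against fat 86.0%. Median scaling moved the median of all genes to 0.12 for HFD against ND in liver (2268 higher and 476 lower, from 1599 and 1105), to 0.15 for the difference between tissues (2694 and 1017, from 1947 and 1435) and to -0.61 for liver against fat (2465 and 6691, from 4117 and 5107). For LU against HFD in liver it gave 326 higher and 781 lower, from 752 and 774. The smaller calls named in the text were also lost under other settings: Plau and Proc (HFD against ND, fat) and Serpina5 (LU against HFD, liver) without background correction (adjusted p = 0.0584, 0.0647 and 0.0742), and Vwf (HFD against ND, liver), F13a1 (HFD against ND, fat) and Plaur (LU against ND, fat) with only the 6 arrays compared (adjusted p = 0.0578, 0.0616 and 0.0563).

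Between diets the replicate numbers did not pair the samples: deviations of same-numbered arrays correlated at -0.11 to 0.16 (1 of 18 pairs over 0.1), and between tissues on HFD and LU at -0.086 to 0.077. With the replicate block, 11, 9 and 10 members were called in fat, 7, 5 and 5 in liver, 12 and 8 for the differences between tissues and 28 for liver against fat. The shares of all genes called were 42.6%, 28.75% and 30.3% in fat and 26.2%, 12.6% and 37.9% in liver. They were 29.7% and 13.2% for the differences between tissues and 85.5% for liver against fat. With the block the calls in liver of F7 and Vwf (HFD against ND, adjusted p = 0.078 and 0.0623), Klkb1 (LU against HFD, 0.0802) and F9 (LU against ND, 0.0511) were lost, as were the differences between tissues of Vwf, Tfpi and F13b (HFD against ND, 0.0534, 0.0794 and 0.0827). The authors' log2 values were not run across tissues, since their column medians differ between tissues. F7 and Proc in fat, F10 on the ND arrays of fat, and Serpina5 and Plaur in liver lie close to background, which limits what a difference there can show.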
